A study of Homo sapiens with 6 samples.

Results

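The genes described here are 10 regulators and markers of the epithelial-mesenchymal transition (EMT), namely the transcription factors ZEB1, ZEB2, SNAI1, SNAI2 and TWIST1, the cadherins CDH1 and CDH2, the mesenchymal proteins VIM and FN1, and the transmembrane mucin MUC1. They were chosen by name from 37887 gene symbols, with no measured value in the rule, though earlier results of these data were known. All 10 passed the filter on low counts that 18851 symbols passed. RNA-seq was performed on BT-549 cells, an established human triple-negative breast cancer line, in 3 control libraries and 3 libraries of cells where IRF1, an interferon-responsive transcription factor, was silenced (shIRF1). Per the labels and the series' design text, the cells carried a tetracycline-inducible IRF1 shRNA, the controls received 0.1% DMSO and the shIRF1 cells 500 ng/ml doxycycline, although titles of the control samples speak of a control shRNA. Doxycycline reached the shIRF1 cells alone, so its effect and that of silencing cannot be told apart. If the titles hold, the groups also differed in their hairpin, and that difference cannot be told apart from silencing either. The line and the hairpin were the same in all silenced cultures, the hours of treatment of these samples are not given in the sources used here, and the cultures are described as triplicates, so p-values measure the spread between them.

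In an EMT, epithelial cells lose the junctions that hold them to their neighbours and take on a motile, fibroblast-like form. The SNAIL proteins (SNAI1 and SNAI2) and the ZEB proteins are zinc finger repressors that bind E-boxes in the promoters of epithelial genes such as CDH1, while TWIST1 is a basic helix-loop-helix factor that can activate mesenchymal genes such as CDH2. Loss of E-cadherin with gain of N-cadherin, vimentin and fibronectin is the classical readout, and BT-549 is widely used as a mesenchymal breast cancer line.

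Total counts were 123528129 to 160436234 in 5 libraries and 55143808 in shIRF1 replicate 2. Values are CPM, which relate each gene's count to the TMM-scaled total of its library, in the order of replicates 1, 2 and 3, and means are given ± SD over n = 3. A log2 fold change is shIRF1 over control with its standard error (SE), and each adjusted p is from the quasi-likelihood test of edgeR, adjusted by Benjamini-Hochberg over the 18851 genes tested. IRF1 itself was at 45.3, 48.1 and 51.5 CPM in control and 13.8, 14.9 and 14.6 CPM in shIRF1 libraries, a log2 fold change of -1.74 ± 0.06 (SE; edgeR adjusted p = 4.53e-13). Of the receptors that define the subtype, ESR1 and PGR stayed under 1 CPM in all 6 libraries, whereas ERBB2 was at 50.8 ± 3.67 CPM in control and fell to 36.4 ± 1.6 CPM (edgeR adjusted p = 1.47e-06). Defining genes of blood, endothelial, muscle, cartilage, liver and melanocytic cells summed to 2.52 to 2.60 CPM in control and 3.68 to 4.23 CPM in shIRF1 libraries, with 14 of the 15 under 1 CPM. The remaining one was CD14, a monocyte marker, which rose from 1.09 ± 0.135 to 2.22 ± 0.189 CPM (edgeR adjusted p = 1.43e-05), and the part of these low signals in the results below was not tested.

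VIM, FN1, SNAI2, TWIST1 and ZEB1 fell and ZEB2 rose after IRF1 silencing, and the other 4 genes did not pass the threshold of an adjusted p under 0.05. These 6 calls among 10 genes stand beside a background of 50.5% of all genes tested, the 5 lower calls beside 26.4% and the 1 higher call beside 24.1%. None of the 10 genes changed more than 2-fold, which 7.86% of all genes did with an adjusted p under 0.05. Groups with no overlap in CPM were found for 6 of the 10 genes, against 56.8% of all genes. The share of EMT genes called was thus near that of the transcriptome, and 5 of the 6 calls were lower. The median log2 fold change was -0.097 over the 10 genes and -0.0024 over all genes tested. In RNA from whole cultures, fewer cells that express a gene and less of its RNA per cell cannot be told apart.

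**Figure D1:**
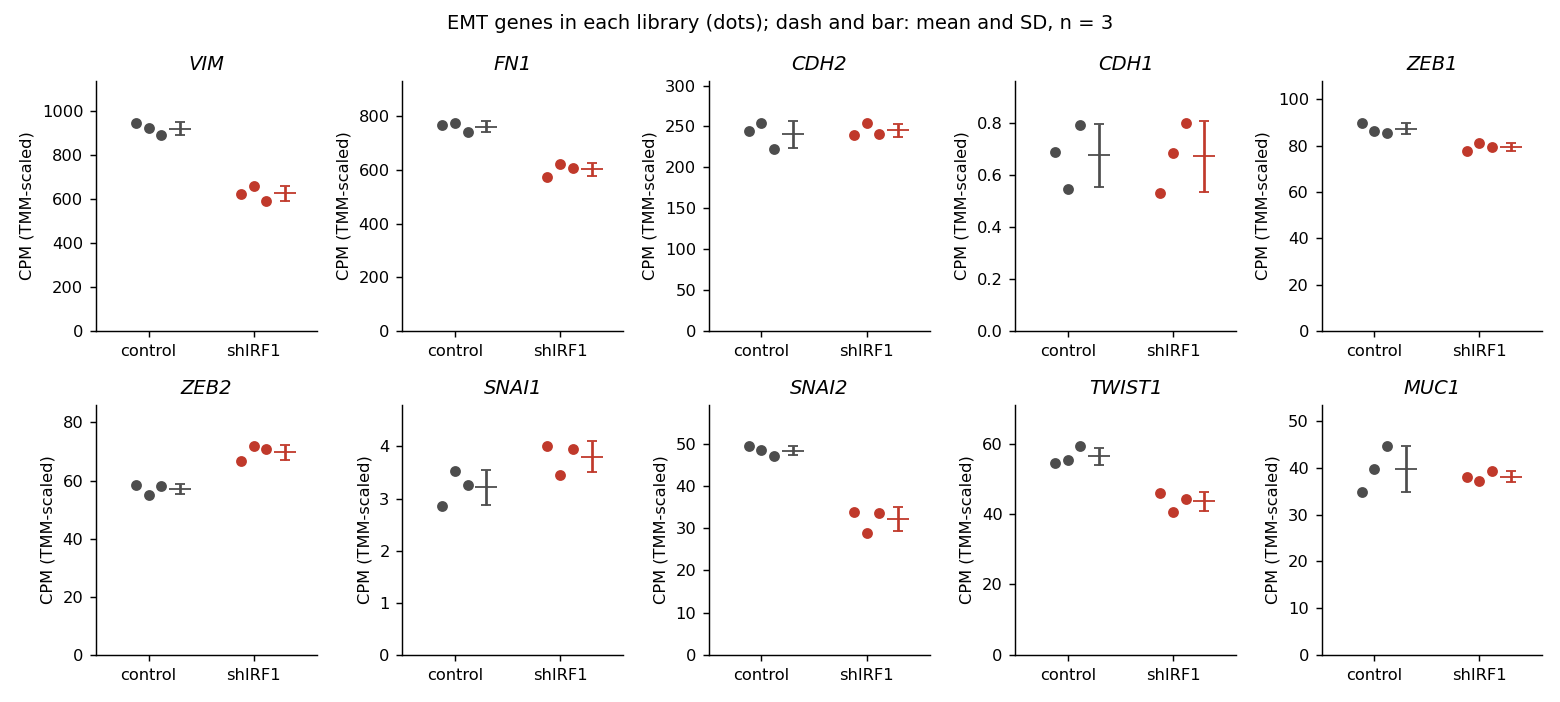
Expression of the 10 EMT genes in TMM-scaled CPM (vertical axes, each from 0) in 3 control and 3 shIRF1 libraries (dots), with the mean and SD of each group (dash and bar). VIM, FN1, SNAI2, TWIST1 and ZEB1 had all 3 shIRF1 libraries below all 3 control libraries, ZEB2 had them above, and CDH1, CDH2, SNAI1 and MUC1 overlapped.

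Among the SNAIL family, SNAI2 (SLUG) fell while SNAI1 (SNAIL) did not pass the threshold. SNAI2, on the minus strand at chr8:48917604-48921740 (GRCh38, GENCODE 29), was at 49.4, 48.4 and 47.2 CPM in control and 33.9, 28.8 and 33.5 CPM in shIRF1 libraries. The groups did not overlap, and the lowest value was in the shallowest library. SNAI2 fell to 66.4% of its control mean, from 48.3 ± 1.09 to 32.1 ± 2.82 CPM, a log2 fold change of -0.59 ± 0.06 (SE; edgeR adjusted p = 2.25e-07). This was the furthest from 0 of the 10, and 77.4% of all genes tested changed by less.

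SNAI1, at chr20:49982999-49988886 on the plus strand, is a short-lived repressor whose RNA was scarce in these cells. It was at 2.86, 3.53 and 3.26 CPM in control and 4.0, 3.46 and 3.94 CPM in shIRF1 libraries, the latter from 192 to 649 counts. Of the 3 shIRF1 libraries, replicates 1 and 3 were above every control, while replicate 2 was within the control range. The log2 fold change was 0.25 ± 0.11 (SE; 95% interval 0.03 to 0.48; edgeR adjusted p = 0.0592), so a rise was not called. The processed copy SNAI1P1 held 4 counts over all 6 libraries, so few reads were assigned to it. SNAI1 did pass the threshold under 7 of 16 other settings, with adjusted p of 0.0284 by upper quartile scaling and 0.0264 by library size alone, and it did so without control replicate 2 (0.0427) or shIRF1 replicate 2 (0.0331), within a range of 0.0154 to 0.231 over the settings.

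Within each library, the count of SNAI2 over that of SNAI1 does not depend on scaling between libraries. It was 17.3, 13.7 and 14.5 in control and 8.48, 8.34 and 8.50 in shIRF1 libraries. The mean ratio moved from 15.2 ± 1.87 to 8.44 ± 0.0880, a change of -44.4%, with no overlap. For 3 libraries against 3, no exact two-sided permutation test of a single value can give a p under 0.10.

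The ZEB paralogs moved in opposite directions. ZEB1, at chr10:31318495-31529814 on the plus strand, encodes a zinc finger homeobox repressor and was at 89.8, 86.3 and 85.4 CPM in control and 77.7, 81.3 and 79.2 CPM in shIRF1 libraries. All 3 shIRF1 values were below all controls, though by little. ZEB1 fell to 91.1% of control, from 87.2 ± 2.34 to 79.4 ± 1.76 CPM, a log2 fold change of -0.14 ± 0.04 (SE; edgeR adjusted p = 0.0118). With upper quartile scaling or library size alone the value was -0.092 or -0.085 and the adjusted p 0.0775 or 0.102, and without shIRF1 replicate 1 it was -0.12 with an adjusted p of 0.0594, so the call ended in these 3 settings. Over all 16 the adjusted p of ZEB1 ranged from 0.00866 to 0.102.

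ZEB2 (SIP1), on the minus strand at chr2:144364364-144524583, was the gene of the 10 that rose. Its values were 58.4, 55.2 and 58.0 CPM in control and 66.9, 71.7 and 70.7 CPM in shIRF1 libraries. Each shIRF1 library was above each control. The mean went from 57.2 ± 1.78 to 69.8 ± 2.57 CPM, or 122% of control, a log2 fold change of 0.29 ± 0.04 (SE; edgeR adjusted p = 3.35e-05), close to the median absolute change of 0.282 over all genes tested. The count of ZEB1 over that of ZEB2 was 1.54, 1.57 and 1.47 in control and 1.16, 1.13 and 1.12 in shIRF1 libraries. That ratio changed by -25.4% from 1.53 ± 0.0474 to 1.14 ± 0.0220, with no overlap between the groups.

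TWIST1, on the minus strand at chr7:19020991-19117672, was at 54.6, 55.3 and 59.2 CPM in control and 46.0, 40.7 and 44.2 CPM in shIRF1 libraries. The lowest control was well above the highest shIRF1 library. TWIST1 fell to 77.4% of control, from 56.4 ± 2.46 to 43.6 ± 2.72 CPM, a log2 fold change of -0.37 ± 0.05 (SE; edgeR adjusted p = 1.24e-05). Its family member TWIST2, given here as a relative and chosen after its values were seen, fell by 0.66 on the log2 scale (edgeR adjusted p = 1.61e-07).

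**Figure D2:**
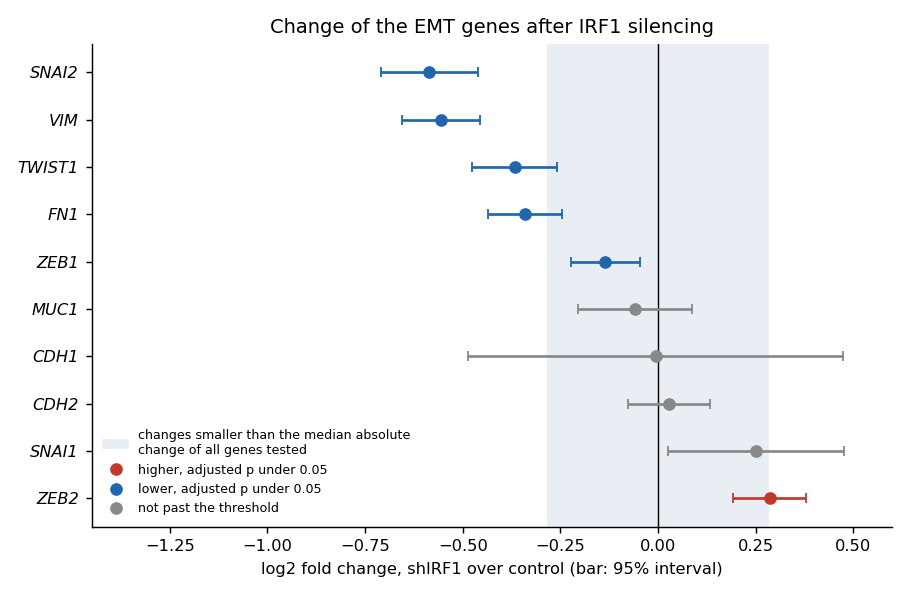
Log2 fold change of each EMT gene, shIRF1 over control (horizontal axis), with its 95% interval (bars), coloured by edgeR's adjusted p under 0.05. The intervals of VIM, SNAI2, TWIST1, FN1 and ZEB1 lie below 0 and those of ZEB2 and SNAI1 above 0, SNAI1 without passing the adjusted threshold; the shaded band spans changes smaller than the median absolute change of all genes tested, 0.282.

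VIM and FN1, the abundant mesenchymal markers, both fell. VIM encodes the intermediate filament of mesenchymal cells and lies at chr10:17228259-17237593 on the plus strand. It was at 945, 921 and 888 CPM in control and 623, 658 and 593 CPM in shIRF1 libraries. The groups stood far apart compared with their spread. VIM fell to 68.0% of control, from 918 ± 28.6 to 625 ± 32.9 CPM, a log2 fold change of -0.56 ± 0.05 (SE; edgeR adjusted p = 3.10e-08), the smallest adjusted p of the 10 genes, and 75.6% of all genes tested changed by less.

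FN1 encodes fibronectin, an extracellular matrix glycoprotein that integrins bind, and lies on the minus strand at chr2:215360440-215436172. It was at 768, 775 and 739 CPM in control and 574, 622 and 607 CPM in shIRF1 libraries, again without overlap. FN1 fell to 79.0% of control, from 761 ± 18.7 to 601 ± 24.7 CPM, a log2 fold change of -0.34 ± 0.04 (SE; edgeR adjusted p = 5.44e-06). The count of FN1 over that of VIM was 0.812, 0.841 and 0.832 in control and 0.920, 0.945 and 1.03 in shIRF1 libraries, a change of 16.3% in the mean, so VIM was lower relative to FN1 in each silenced library.

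The cadherins of the classical switch did not pass the threshold in either direction. CDH2, which encodes N-cadherin and lies on the minus strand at chr18:27950966-28177446, was abundant, at 244, 254 and 223 CPM in control and 240, 255 and 241 CPM in shIRF1 libraries. The groups overlapped throughout. The log2 fold change was 0.03 ± 0.05 (SE; edgeR adjusted p = 0.674), with a 95% interval of -0.08 to 0.13. Its sign turned without control replicate 3, at -0.021.

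CDH1, which encodes E-cadherin and lies at chr16:68737225-68835548 on the plus strand, was the scarcest of the 10 RNAs. It had 85, 67 and 118 counts in control and 67, 38 and 132 counts in shIRF1 libraries, or 0.690, 0.547 and 0.791 against 0.532, 0.685 and 0.802 CPM. A count of 3, taken as the floor, corresponds to 0.0182 to 0.0540 CPM and covers counting error only. Both groups averaged under 1 CPM, at 0.676 ± 0.123 and 0.673 ± 0.136, and they overlapped. The log2 fold change of -0.01 ± 0.23 (SE; edgeR adjusted p = 0.985) had a 95% interval of -0.49 to 0.47, and its sign turned under other scalings and without control replicate 1, control replicate 3 or shIRF1 replicate 1, so changes within that interval could not be shown with these libraries. CDH2 counts exceeded CDH1 counts 354, 464 and 281 times in control and 451, 372 and 301 times in shIRF1 libraries, with overlap and a change of 2.10% in the mean.

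**Figure D3:**
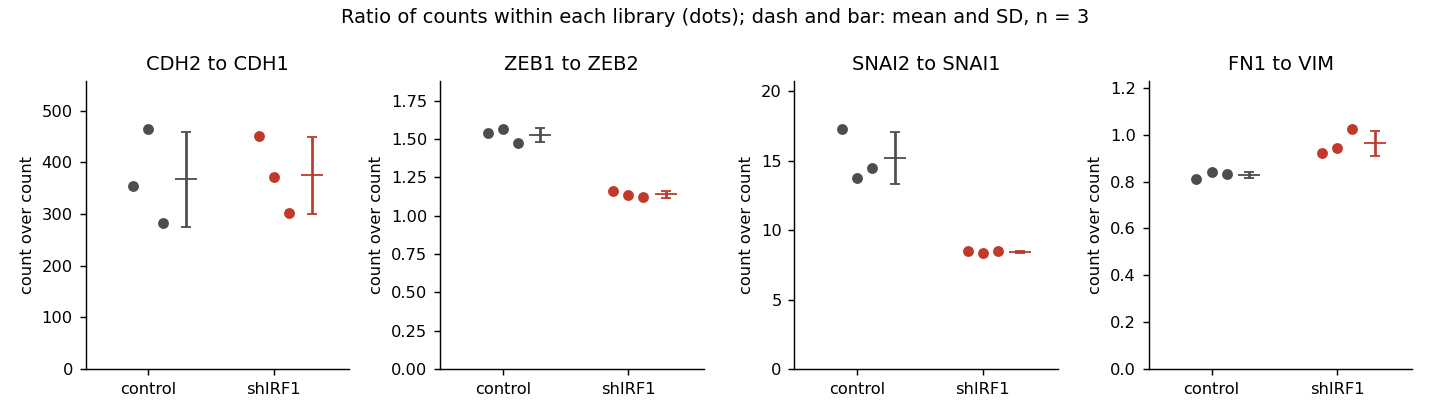
Ratio of the counts of 2 genes within each library (vertical axes, each from 0; dots are libraries, dash and bar the mean and SD of 3). The ratios of ZEB1 to ZEB2 and of SNAI2 to SNAI1 were lower and that of FN1 to VIM higher in all 3 shIRF1 libraries, while that of CDH2 to CDH1 overlapped.

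MUC1 encodes a transmembrane mucin of the apical surface of epithelia and lies on the minus strand at chr1:155185824-155192916. It was at 34.9, 39.7 and 44.6 CPM in control and 38.0, 37.1 and 39.3 CPM in shIRF1 libraries. All 3 silenced libraries lay inside the wider control range. The means were 39.7 ± 4.83 and 38.1 ± 1.11 CPM, a log2 fold change of -0.06 ± 0.07 (SE; 95% interval -0.21 to 0.09; edgeR adjusted p = 0.520), and the sign turned to 0.070 with a correction for GC content and length and to 0.035 without control replicate 3. Of 15 other mucins, all averaging under 1 CPM, 4 passed the filter and 1, MUC16, was lower. That is 25% called, against 50.5% of all genes tested.

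Compared per kilobase of merged exons (GENCODE 29), the levels of the 10 RNAs in control cells spanned 178 ± 5.55 CPM per kb for VIM to 0.109 ± 0.0199 CPM per kb for CDH1. CDH2 at 48.5 ± 3.23 and FN1 at 43.9 ± 1.08 CPM per kb followed VIM. TWIST1 was at 27.7 ± 1.21, SNAI2 at 14.3 ± 0.320, ZEB1 at 10.1 ± 0.270 and MUC1 at 8.42 ± 1.02 CPM per kb, which made TWIST1 the most abundant of the 5 transcription factor RNAs on this scale. ZEB2 at 2.28 ± 0.0710 and SNAI1 at 1.91 ± 0.200 CPM per kb were lowest but for CDH1, and the value of ZEB2 depends on a merged exon length of 25.058 kb that pools many isoforms. The control means of the neighbours CDH2 and FN1, ZEB1 and MUC1, and ZEB2 and SNAI1 differed by less than 2 SD of the more variable gene.

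Antisense genes that share exonic bases bear on these values because the use of strand in counting is not stated. VIM-AS1 shares 641 exonic bases with VIM on the opposite strand, 12.4% of the merged exons of VIM. VIM-AS1 was at 1.37, 1.47 and 1.61 CPM in control and 2.33, 2.95 and 2.57 CPM in shIRF1 libraries, and rose with a log2 fold change of 0.80 ± 0.13 (SE; edgeR adjusted p = 6.14e-05) while VIM fell. If strand was not used, reads of the shared bases could not be assigned to either gene, and VIM-AS1 was scarce beside VIM. ZEB1-AS1, which shares 366 exonic bases with ZEB1, was at 4.93 ± 0.306 and 4.88 ± 0.637 CPM, and ZEB2-AS1, which shares 1299 with ZEB2, was at 0.190 ± 0.0826 and 0.159 ± 0.0493 CPM, neither past the threshold. Other antisense genes share 619 exonic bases with VIM (AL133415.1), 141 with TWIST1 (AC003986.2), 347 with CDH1 (AC099314.1) and 136 with CDH2 (AC110015.1). These symbols are absent from the deposited counts, so their levels are not known here. Next to MUC1, THBS3 fell by 1.27 and TRIM46 by 0.34 on the log2 scale (edgeR adjusted p = 1.16e-10 and 0.00246), whereas KRTCAP2 was at 5.03 ± 0.387 and 5.39 ± 0.574 CPM (edgeR adjusted p = 0.366).

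Promoter sequence was read because IRF1 binds interferon-stimulated response elements (ISREs), whose core was searched as GAAANNGAAA (TTTCNNTTTC on the other strand). The search ran over 300 bases, from 250 before to 50 after each RefSeq transcription start (GRCh38.p14). Windows were found for 6 of the 10 genes, 14 windows in all, and CDH1, SNAI1, SNAI2 and TWIST1 had no entry. The ISRE core was in 3.57% of the 35116 windows of all genes, the gamma-activated sequence TTCNNNGAA in 7.66% and the E-box CAGGTG, read on the other strand as CACCTG, which ZEB and SNAIL proteins bind, in 20.6%. The core lay in the window of ZEB2 at position -85 and in 1 of the 7 windows of ZEB1 at position -173, counted from the start. E-boxes lay in both windows of MUC1, which overlap almost fully and hold the same sites. They also lay in 2 windows of ZEB1, while VIM, FN1 and CDH2 held none of the 3 motifs. A match is a description of letters and does not show binding.

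The 250 bases upstream of the start are shown for the ZEB paralogs with the ISRE core in capitals, for MUC1 with its adjacent E-boxes in capitals, and for VIM, the gene with the smallest adjusted p, without a match. They come from chr2:144520120-144520369 (minus strand, ZEB2), chr10:31320304-31320553 (plus strand, ZEB1), chr1:155192916-155193165 (minus strand, MUC1) and chr10:17227991-17228240 (plus strand, VIM), each written 5′ to 3′ on the gene's strand.
ZEB2: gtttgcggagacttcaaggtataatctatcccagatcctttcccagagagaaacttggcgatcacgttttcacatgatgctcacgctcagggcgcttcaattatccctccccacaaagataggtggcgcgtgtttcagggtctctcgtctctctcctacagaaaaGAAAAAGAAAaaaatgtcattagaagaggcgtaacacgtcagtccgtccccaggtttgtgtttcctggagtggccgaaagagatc
ZEB1: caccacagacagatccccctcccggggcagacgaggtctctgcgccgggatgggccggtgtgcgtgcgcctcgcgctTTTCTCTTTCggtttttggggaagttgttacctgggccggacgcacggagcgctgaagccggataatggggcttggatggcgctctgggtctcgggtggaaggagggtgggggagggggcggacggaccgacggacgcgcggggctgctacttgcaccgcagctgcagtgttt
MUC1: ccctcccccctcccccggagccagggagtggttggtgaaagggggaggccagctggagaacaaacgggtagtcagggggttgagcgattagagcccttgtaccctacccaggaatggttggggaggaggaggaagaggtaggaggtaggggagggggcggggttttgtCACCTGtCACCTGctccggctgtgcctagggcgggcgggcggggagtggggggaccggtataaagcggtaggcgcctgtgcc
VIM: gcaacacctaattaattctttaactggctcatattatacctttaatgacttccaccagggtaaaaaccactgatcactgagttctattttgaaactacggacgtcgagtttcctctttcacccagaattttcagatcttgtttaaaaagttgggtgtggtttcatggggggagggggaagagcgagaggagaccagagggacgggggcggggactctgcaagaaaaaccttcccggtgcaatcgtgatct
Both windows with an ISRE core lie inside the GENCODE 29 spans of ZEB2 and ZEB1, upstream of RefSeq starts within those genes. Whether these starts are used in BT-549 cells was not tested, nor was any link between the motifs and the changes.

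Other genes of the EMT programme were grouped by their known roles. The 18851 genes tested, of which 50.5% were called, included 5785 with a mean under 1 CPM. Where at least 1 CPM in 3 samples was required, 13204 genes were tested, with 4296 called higher and 4273 lower. The background share thus depends on the level of the genes, and no list below was matched to it in level. Among other EMT transcription factors, 17 of 25 passed the filter, 15 fell, 1 rose and 1 was not called, with a median log2 fold change of -0.50. PRRX1, a mesenchymal homeobox factor, was at 49.5, 50.2 and 50.3 CPM in control and 12.7, 15.1 and 13.1 CPM in shIRF1 libraries, a log2 fold change of -1.88 ± 0.06 (SE; edgeR adjusted p = 2.76e-13). SOX9 and SOX4, developmental HMG-box factors, fell by 1.19 and 1.14 on the log2 scale (edgeR adjusted p = 1.30e-12 and 9.49e-13). The 94.1% of this list that was called stands beside the 50.5% of all genes. The single higher gene was SNAI3, at 0.248 and 0.542 CPM, below the level set for naming genes.

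Of 36 other mesenchymal markers that passed the filter, 24 fell, 4 rose and 8 were not called, with a median log2 fold change of -0.41. The share called was 77.8%, against 50.5% of all genes. TGFBI, a matrix protein induced by TGF-beta, went from 381 ± 14.0 to 99.8 ± 7.43 CPM, INHBA, an activin subunit, from 48.3 ± 5.57 to 16.8 ± 1.07 CPM, and MYL9, a myosin light chain, from 6.57 ± 0.996 to 2.41 ± 0.199 CPM. Their log2 fold changes were -1.93 ± 0.05, -1.52 ± 0.08 and -1.46 ± 0.11 (SE). They were named as the largest falls of the list at a mean of at least 1 CPM, so their size is not compared with that of VIM or FN1. DAB2, an endocytic adaptor, CCN1 and SPARC, both matricellular proteins, rose by at most 0.23 on the log2 scale (edgeR adjusted p = 9.90e-05, 0.000721 and 0.00166). The remaining riser was CNN1 (calponin), which rose by 1.19 on the log2 scale at 0.337 and 0.748 CPM, below the level set for naming genes.

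The epithelial lists held genes that moved both ways. Among 35 junction and keratin genes tested, 13 fell, 10 rose and 12 were not called (median log2 fold change -0.21), or 65.7% called against 50.5% of all genes. Desmosome and keratin genes led the falls. KRT5 and KRT14 had the log2 fold changes furthest below 0, -3.50 and -3.32, at under 1 CPM, below the level set for naming genes. DSP (desmoplakin) was at 7.94, 10.2 and 9.25 CPM in control and 0.889, 1.37 and 1.49 CPM in shIRF1 libraries, a log2 fold change of -2.87 ± 0.15 (SE; edgeR adjusted p = 4.85e-11). KRT7 fell from 74.3 ± 0.963 to 21.0 ± 1.87 CPM and KRT17 from 2.52 ± 0.286 to 0.253 ± 0.0838 CPM, and the 8 symbols of KRT17 pseudogenes held 40 counts against 1090 for KRT17. KRT8 and KRT18, which were counted among the falls, are uncertain, since their pseudogene symbols held 10893 counts against 770 for KRT8 and 2491 against 3516 for KRT18. In contrast, the tight junction genes OCLN (occludin) and MARVELD2 (tricellulin) rose by log2 fold changes of 0.96 ± 0.07 and 0.76 ± 0.13 (SE), and AP1M2, a clathrin adaptor subunit of epithelia, by 0.73 ± 0.09 (SE).

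Of 15 epithelial transcription and splicing factors tested, 7 fell, 1 rose and 7 were not called (median log2 fold change -0.55), and the 53.3% called was near the 50.5% of all genes. KLF4 fell from 64.7 ± 3.96 to 27.9 ± 0.809 CPM and TFAP2A from 108 ± 2.60 to 73.7 ± 5.17 CPM, while TP63 fell at a low level, from 1.46 ± 0.0771 to 0.598 ± 0.128 CPM. RBM47, an RNA-binding protein, rose from 5.78 ± 0.197 to 9.15 ± 0.970 CPM (edgeR adjusted p = 4.00e-06). The rises depended on scaling, with 3 under upper quartile scaling and under library size alone.

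Among other cadherins and catenins, 7 of 12 fell, 3 rose and 2 were not called, with a median log2 fold change of -0.33 and 83.3% called, against 50.5% of all genes. CDH11, a mesenchymal cadherin, was at 222, 212 and 221 CPM in control and 108, 121 and 123 CPM in shIRF1 libraries, and CDH3 (P-cadherin) at 106, 102 and 123 against 49.8, 58.0 and 52.9 CPM. Both fell, by 0.90 and 1.05 on the log2 scale (edgeR adjusted p = 1.43e-10 and 4.99e-10), while the groups overlapped for CDH2. JUP (plakoglobin) fell from 25.5 ± 2.01 to 8.66 ± 0.642 CPM, and CTNND1 (p120-catenin), which stabilises cadherins at the membrane, rose from 20.7 ± 0.731 to 25.9 ± 0.651 CPM.

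The proteins that SNAIL, ZEB and TWIST work with, or that set their turnover, gave 9 higher, 13 lower and 11 not called of 33 tested (median log2 fold change -0.094), or 66.7% called against 50.5% of all genes. Only 1 gene of this list averaged under 1 CPM, so the share of all genes is not matched to it in level. FBXL14, an F-box protein that marks SNAIL family proteins and TWIST1 for degradation, fell from 8.63 ± 1.18 to 4.17 ± 0.299 CPM. CTDSP2, a phosphatase, fell from 216 ± 9.53 to 129 ± 5.95 CPM, and CTBP2, a corepressor bound by ZEB proteins, from 94.4 ± 2.16 to 60.2 ± 1.34 CPM. USP51, a deubiquitinase of ZEB1, rose from 0.970 ± 0.0639 to 1.47 ± 0.224 CPM, ATM, a kinase that stabilises ZEB1 protein, from 102 ± 4.79 to 137 ± 2.46 CPM, and FBXW7, a ubiquitin ligase subunit, from 24.1 ± 0.888 to 31.8 ± 1.25 CPM. Protein levels were not measured.

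Fibronectin receptors and their partners gave 7 lower, 4 higher and 4 not called of 15 tested (median log2 fold change -0.19), or 73.3% called against 50.5% of all genes. ITGA5, the alpha subunit of the classical fibronectin receptor, was at 187, 196 and 215 CPM in control and 84.5, 84.1 and 84.2 CPM in shIRF1 libraries, a log2 fold change of -1.24 ± 0.05 (SE; edgeR adjusted p = 1.86e-12). ITGB3 and ITGB5 fell by 0.88 and 0.79 on the log2 scale. SDC4, a heparan sulfate coreceptor, rose from 211 ± 10.4 to 318 ± 11.4 CPM, ITGAV from 133 ± 5.65 to 198 ± 1.75 CPM, and PTK2, the focal adhesion kinase, from 202 ± 2.21 to 234 ± 10.8 CPM.

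**Figure D4:**
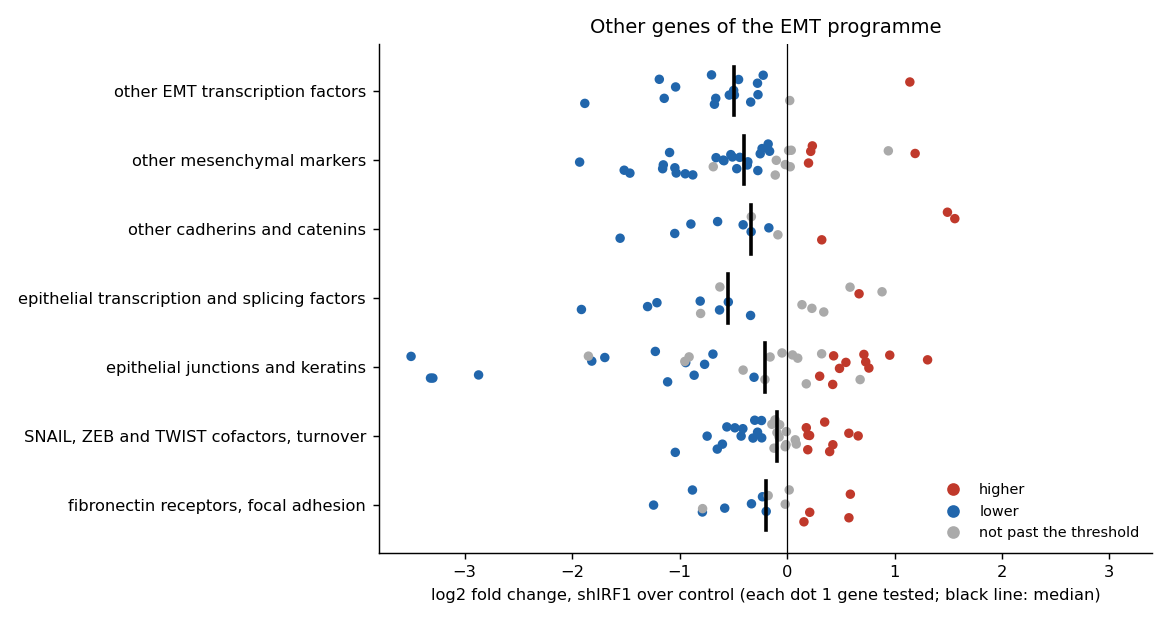
Log2 fold change, shIRF1 over control (horizontal axis), of each gene tested in 7 lists related to EMT (dots, coloured by edgeR's adjusted p under 0.05, with the median of each list as a black line). Of 17 other EMT transcription factors 15 fell, and of 35 junction and keratin genes 13 fell and 10 rose.

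The genes whose log2 CPM over the 6 libraries was most like that of VIM, among the 13066 genes whose mean reached 1 CPM, were ARHGAP26, RANBP9 and SLC16A1. Their Pearson r with VIM was 0.9998, 0.9993 and 0.9993, and 2120 genes had an r over 0.95, so a high r was common where the groups stand apart. The r is a description over 6 points that share the contrast between the groups.

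**Figure D5:**
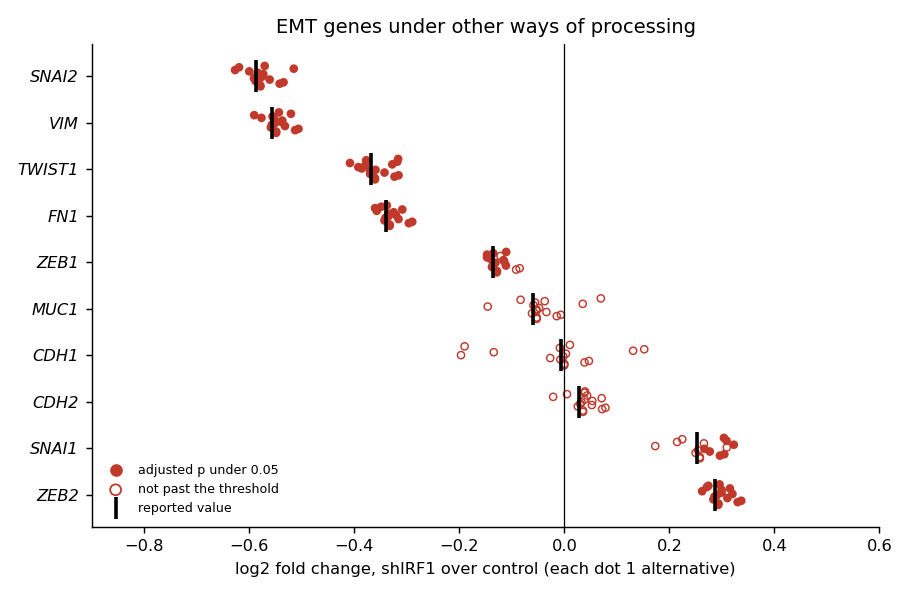
Log2 fold change of each EMT gene (horizontal axis) under each alternative way of processing (dots, filled where the adjusted p is under 0.05) and as reported (black bar). VIM, ZEB2, SNAI2, TWIST1 and FN1 were called in all 16 settings, ZEB1 in 13 and SNAI1 in 7, and CDH1, CDH2 and MUC1 in none.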

How the data were processed

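Per gene symbol, raw counts were deposited by the authors for 6 BT-549 libraries (TruSeq Stranded mRNA), with no normalization. The submitters' processing notes name CASAVA 1.8.2, STAR 2.7.9a, featureCounts, DESeq2 1.24.0 and the build GRCh38.p7. The annotation release, the use of strand and the counting of mates are not given in the sources used here. Between 72.1% and 75.2% of values from 2 to 11 counts were even, so mates appear to have been counted separately, and halved counts were tried. Titles matched each of the 6 columns to its sample.

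The counts were tested with edgeR's quasi-likelihood test (edgeR 4.0.16, limma 3.58.1, R 4.3.3), with group as the factor, TMM scaling, filterByExpr (minimum count 10) and adjustment by Benjamini-Hochberg over 18851 genes. The code was tested on simulated data. The SE is the log2 fold change over the square root of F. Coordinates, overlaps and exon lengths are from GENCODE 29 (GRCh38), promoters from RefSeq (GRCh38.p14).

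The 10 genes and the lists were chosen with earlier results of these data known. The genes named were the 10, IRF1, their antisense and divergent partners that passed the filter, per list and direction the 3 called genes of largest log2 fold change at a mean of at least 1 CPM, and the 3 most like the EMT gene with the smallest adjusted p. Alternatives were DESeq2 1.42.0, other scalings and filters, stricter thresholds, halved and thinned counts, leaving out each replicate, a replicate block and, chosen after seeing the data, a correction for GC content and length (known for 98.6% of genes tested).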

Additional observations from a re-analysis of the deposited data

How the results depend on the processing

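VIM, FN1, SNAI2, TWIST1, ZEB2 and IRF1 kept their direction and call in all 16 settings. SNAI1 passed the threshold with upper quartile scaling (log2 fold change 0.30, adjusted p = 0.0284), library size alone (0.30, 0.0264), a filter of 1 CPM in 3 samples (0.28, 0.0397), halved counts (0.27, 0.0430) and the GC content and length correction (0.30, 0.0154), so that 2 of the EMT genes were then higher, and in edgeR's test its value ranged from 0.17 to 0.32 on leaving out a replicate, with a call without control replicate 2 (adjusted p = 0.0427) or shIRF1 replicate 2 (0.0331). ZEB1 lost its call with upper quartile scaling (-0.092, adjusted p = 0.0775) and library size alone (-0.085, 0.102) and ranged from -0.15 to -0.12 on leaving out a replicate. Upper quartile scaling and library size alone moved the median log2 fold change of all genes to 0.041 and 0.049, and the share of higher genes among those called from 47.8% to 54.0% and 55%. By library size alone, CDH2, ZEB1 and MUC1 stood at 106%, 94.3% and 99.5% of control.

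Genes never called changed sign near 0: CDH1 with DESeq2 size factors in edgeR (0.000146), upper quartile scaling (0.039), library size alone (0.047) and the GC content and length correction (0.011), and from -0.19 to 0.15 on leaving out a replicate; CDH2 from -0.021 to 0.071 and MUC1 from -0.15 to 0.035 on leaving out a replicate, and MUC1 with the GC content and length correction (0.070). ZEB1-AS1 reversed with the replicate block (-0.00671) and thinned counts (-0.0893) and ranged from -0.073 to 0.092 on leaving out a replicate, and ZEB2-AS1 from -0.40 to 0.21.

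Requiring a 2-fold change left 0 EMT genes higher and 0 lower. It left 4 other EMT transcription factors lower, 0 epithelial factors higher and 3 lower, 1 junction or keratin gene higher and 8 lower, 1 mesenchymal marker higher and 8 lower, 2 cadherins or catenins higher and 2 lower, 0 cofactors higher and 1 lower, 0 fibronectin receptors higher and 1 lower, and 0 partners higher. Higher epithelial factors numbered 2 with DESeq2, no filter, halved or thinned counts and the 1 CPM filter, 3 with upper quartile scaling, library size alone and the GC correction, and 1 to 3 on leaving out a replicate. The 1 CPM filter, which tests fewer genes, left 4 epithelial factors lower, 0 other EMT transcription factors higher (0 to 1 on leaving out a replicate), 1 cadherin or catenin higher and 0 mucins lower, and CDH1 was not tested under it. EMT genes higher numbered 1 to 2 on leaving out a replicate. The causes were not tested beyond this.

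Replicate numbers are shared by the groups. Deviations of same-numbered libraries correlated at 0.0137, 0.025 and -0.00724, and 3 of 6 libraries correlated best with their own number. The main fit used no pairing, and whether same-numbered libraries share a culture or preparation batch was not tested. With the replicate block the EMT genes gave 1 higher and 5 lower, and SNAI1 an adjusted p of 0.0762. CDH1 had the fewest counts of the EMT genes, 38 to 132 a library.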
